A study of Homo sapiens with 4 samples.

Results

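The genes described here are 10 target genes of the transcription factor NRF2 that serve the antioxidant response, out of 20136 protein-coding genes in GENCODE on hg19. They are NQO1, GCLC, GCLM, TXNRD1, SRXN1, HMOX1, AKR1C1, AKR1C2, AKR1B10 and SLC7A11. They were chosen by name as textbook NRF2 targets, with earlier results of these data known. The data are peaks of H3K27ac, the acetylation of histone H3 at lysine 27, measured by ChIP-seq with the antibody ab4729. The study searched cancer genomes for non-coding mutations that create binding sites near cancer genes, and used this mark to find regulatory regions active in the same line.

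Each of 4 established human cancer cell lines gave 1 library. COLO-205 is a colon line grown in RPMI with serum, DU-145 a prostate line grown in Eagle minimal essential medium with serum, OVCAR-3 an ovarian line grown in RPMI 1640 medium with serum, and SKOV-3 an ovarian line grown in McCoy's 5a minimal essential medium with serum. No treatment, deletion or transgene is given for any of them. With 1 library per line, no difference between lines could be tested, and line, medium and library cannot be told apart.

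The peak list of COLO-205 holds 85576 peaks, that of OVCAR-3 76093, that of DU-145 75468 and that of SKOV-3 14001. The estimated number of ChIP tags, the sequenced fragments of the immunoprecipitated DNA, lay between 22400000 in SKOV-3 and 36000000 in DU-145. SKOV-3 therefore has the shortest list and the lowest depth, and a missing peak there says only that no enrichment passed the threshold. Of the tissue markers, 3 of 6 colon genes had a promoter peak in COLO-205, where 51.2% of all protein-coding genes did. The colon count of DU-145 was 1 of 6, that of OVCAR-3 also 1 and that of SKOV-3 0. Of the ovarian genes, 5 of 6 had one in OVCAR-3, against 60.5% of protein-coding genes. SKOV-3 had 3 of 6 ovarian genes marked, against 31.6%. The same number of ovarian genes, 3 of 6, had one in COLO-205 and in DU-145, so this count does not set SKOV-3 apart from the lines of other tissues. Of the prostate genes, TMPRSS2 had one in DU-145, while KLK3, HOXB13 and FOLH1 had none.

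NRF2, encoded by NFE2L2, is held at a low level by KEAP1, an adaptor of a CUL3 ubiquitin ligase that senses electrophiles and oxidants. When KEAP1 is modified, NRF2 accumulates, pairs with a small MAF protein and binds the antioxidant response element (ARE) in front of its targets, a site that BACH1 occupies as a repressor. The targets make glutathione, reduce thioredoxin and peroxiredoxins, break down haem and quinones, and detoxify carbonyls. NRF2 signalling is often raised in cancers, where it aids survival under oxidative stress and resistance to drugs.

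The ARE was searched as its core letters TGACNNNGC on both strands, where N is any base. A stricter form, TGACTCAGC, also holds TGACTCA, the letters bound by AP-1 factors, so that a match to it fits either site. Among the 300-base promoters of protein-coding genes, taken from 250 bases before to 50 after the main start, 14% held the core letters. Of the 10 members 2 did, GCLM and TXNRD1, with 1 match and 2 matches. The core letters lie in at least 1 peak of 6 members. For each, the match nearest to a transcript start is shown from GRCh37, the build of the peak lists, read 5′ to 3′ on the strand of the match, with the matching letters in capitals. They are shown so that the position of each match can be set against the peaks of each line. A match is to letters only, and binding of NRF2 was not analysed here.

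GCLC, chr6:53413027-53413075, forward strand: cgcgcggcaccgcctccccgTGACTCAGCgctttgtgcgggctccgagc
GCLM, chr1:94375002-94375030, forward strand: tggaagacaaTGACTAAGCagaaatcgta
TXNRD1, chr12:104609539-104609567, reverse strand: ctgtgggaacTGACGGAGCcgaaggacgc
SRXN1, chr20:633210-633258, reverse strand: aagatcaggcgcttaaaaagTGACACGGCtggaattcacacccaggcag
NQO1, chr16:69760890-69760938, reverse strand: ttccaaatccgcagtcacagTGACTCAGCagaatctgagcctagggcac
HMOX1, chr22:35813788-35813836, forward strand: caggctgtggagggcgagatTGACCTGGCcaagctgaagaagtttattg

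The GCLC and NQO1 sites carry the stricter letters and the other 4 only the core. The GCLC match lay 47 bp before an alternative start and 3152 bp before the main start, in no annotated exon. The NQO1 match lay 451 bp before the main start, and the stretch shown overlaps an exon of the gene NQO1-DT. The GCLM match lay 30 bp before the main start and 4 bp before an alternative start, and the stretch shown reaches into the exon of the latter. The TXNRD1 match lay 4 bp before the main start, and its stretch reaches into the first exon. The SRXN1 match lay 610 bp downstream of the start in no exon. The HMOX1 match lay 36723 bp downstream of the start, and its stretch overlaps an exon of the neighbour MCM5. The 25-base words centred on these matches each occur 1 time in the genome. No peak at AKR1C1, AKR1C2, AKR1B10 or SLC7A11 held the core letters between its own ends, which says only that these letters are not in those peaks.

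A promoter peak is a peak that overlaps 1 kb either side of any transcript start of the gene. In COLO-205, 5 of the 10 members had one, where 51.2% of all protein-coding genes did. In DU-145, 7 members had one against 59.9% of protein-coding genes. In OVCAR-3, 6 members had one against 60.5%. In SKOV-3, 3 members had one against 31.6%. In all 4 lists the members' share was within about 1 gene of the share of coding genes, so that the antioxidant genes as a list did not stand out at promoters. The number of transcript starts, which sets how much sequence is searched, had a median of 5 in the members and of 5 in all coding genes.

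**Figure D1:**
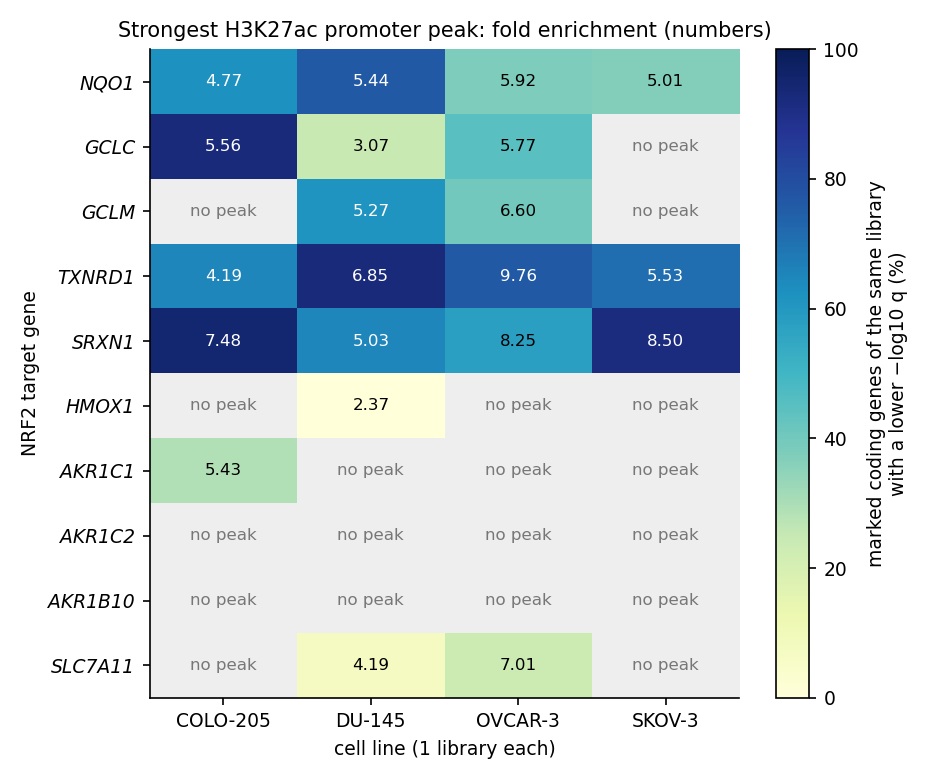
Strongest H3K27ac promoter peak of each NRF2 target gene (rows) in each cell line (columns, 1 library each). Numbers are fold enrichment over the local background, the colour is the percentage of marked coding genes of the same library with a lower −log10 q, and grey cells have no peak. NQO1, TXNRD1 and SRXN1 have a peak in all 4 lines, while AKR1C2 and AKR1B10 have none.

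NQO1, TXNRD1 and SRXN1 were marked in all 4 lines, as were 25.2% of protein-coding genes. GCLC was marked in 3 lines, GCLM and SLC7A11 in DU-145 and OVCAR-3, HMOX1 in DU-145 and AKR1C1 in COLO-205. AKR1C2 and AKR1B10 had no promoter peak in any list, as was the case for 5011 coding genes. For each gene the strongest promoter peak, the one with the highest −log10 q, is described by its fold enrichment at the summit, by the tags piled up there, and by its rank among the marked coding genes of the same list.

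GCLC, at chr6:53362139-53481768 on the reverse strand, encodes the catalytic subunit of glutamate-cysteine ligase, the rate-limiting enzyme of glutathione synthesis. Its strongest peak lay within 1 kb of the main start in 3 lines, and SKOV-3 had no promoter peak. In COLO-205 it held 89 tags with a fold of 5.56 and a −log10 q of 34.5, above 92.4% of marked coding genes. In DU-145 it held 68 tags with a fold of 3.07 and a −log10 q of 12.9, above 24.4% of them. In OVCAR-3 it held 92 tags with a fold of 5.77 and a −log10 q of 37.9, above 45.3%. The DU-145 peak was thus the weakest of the 3, although its width of 775 bp was close to those of 860 bp in COLO-205 and 719 bp in OVCAR-3.

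The GCLC match shown above was inside a peak only in OVCAR-3. That peak spans chr6:53413047-53413245, had a fold of 3.602 and a −log10 q of 12.3, and begins at the first base of the match. In DU-145 the nearest peak ended 300 bases short of the match, and in COLO-205 the nearest began 654 bases beyond it. In SKOV-3 the nearest peak lay 188914 bases away, so that the whole GCLC neighbourhood was without peaks in that line.

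GCLM, at chr1:94350755-94375012 on the reverse strand, encodes the modifier subunit that makes the same ligase more efficient. Its promoter peak was present in DU-145 and OVCAR-3, with 70 tags at the summit in each. The fold was 5.27 with a −log10 q of 26.2 in DU-145 and 6.602 with a −log10 q of 33.1 in OVCAR-3. Per 1000000 tags these pileups were 1.94 in DU-145, with a 95% Poisson interval of 1.51 to 2.45, and 2.05 in OVCAR-3, with an interval of 1.59 to 2.58. These intervals, which cover counting error only, overlapped almost fully. By rank the peak was above 61.0% of marked coding genes in DU-145 and 40.1% in OVCAR-3. The GCLM match was whole inside the OVCAR-3 peak, and the DU-145 peak ended within it.

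SLC7A11, at chr4:139085251-139163503 on the reverse strand, encodes the cystine-glutamate exchanger that brings in the cysteine for glutathione. Its peaks lay inside the gene, with the summit 532 bp downstream of the start in DU-145 and 452 bp in OVCAR-3. The DU-145 peak held 25 tags, with a fold of 4.19 and a −log10 q of 7.84. The OVCAR-3 peak held 36 tags, with a fold of 7.01 and a −log10 q of 19.1. Both ranked low in their lists, above 7.55% and 23.2% of marked coding genes. The DU-145 peak was lost when a −log10 q of at least 10 was required.

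GCLC, GCLM and SLC7A11 were thus marked in DU-145 and OVCAR-3 and not in SKOV-3, where 31.6% of coding genes were marked. The pattern of GCLM and SLC7A11 over the 4 lines was that of 9.98% of coding genes and the pattern of GCLC that of 12.98%. With every list limited to its 14001 strongest peaks, SLC7A11 was marked in no line, GCLC no longer in DU-145, and of the 3 genes only GCLM in both. In COLO-205 the catalytic subunit was marked near the top of the list, while the modifier subunit and the exchanger had no peak.

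TXNRD1, at chr12:104609557-104744085 on the forward strand, encodes cytosolic thioredoxin reductase, which keeps thioredoxin reduced with electrons from NADPH. It has 19 annotated transcript starts along the gene, and the main start is the most upstream. Only DU-145 had a peak at the main start, 1209 bp wide, with 108 tags, a fold of 6.85 and a −log10 q of 50.5. That peak ranked above 92.4% of marked coding genes and covers the TXNRD1 match shown above. In OVCAR-3 the peak nearest to that match was 2280 bases away, and in COLO-205 and SKOV-3 the nearest were 29998 and 61244 bases away. Other matches to the core letters lie at starts farther inside the gene and were marked in more lines. The match at chr12:104680708-104680716, 9 bp from a start, was inside peaks of DU-145 and OVCAR-3, and that at chr12:104682871-104682879, 202 bp downstream of a start, was inside peaks of DU-145, OVCAR-3 and SKOV-3.

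At starts farther inside the gene all 4 lines had a peak over the same stretch, with summits 71389 to 71426 bp downstream of the main start. OVCAR-3 had 134 tags at its summit, DU-145 82, COLO-205 56 and SKOV-3 51. The fold was 9.76 in OVCAR-3, 5.53 in SKOV-3, 4.29 in DU-145 and 4.19 in COLO-205. Per 1000000 tags the pileup was 3.92 in OVCAR-3 (95% Poisson interval 3.28 to 4.64), 2.28 in SKOV-3 (1.70 to 2.99), 2.27 in DU-145 (1.81 to 2.82) and 1.88 in COLO-205 (1.42 to 2.44). OVCAR-3 was highest, with an interval that did not overlap those of the other 3, which overlapped each other. By rank the peak was above 76.5% of marked coding genes in OVCAR-3, 70.7% in SKOV-3 and 65.0% in COLO-205. For DU-145 the rank was taken at the main start. The median fold of all marked coding genes was 7.39 in OVCAR-3, 5.25 in SKOV-3, 4.65 in DU-145 and 4.45 in COLO-205. The counting error of 1 library does not include the spread between cultures, which was not measured.

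SRXN1, at chr20:627259-633844 on the reverse strand, encodes sulfiredoxin, which restores overoxidised peroxiredoxins. It has 1 annotated start, and 1 peak lay across it in every line. OVCAR-3 had 92 tags at the summit, DU-145 79, COLO-205 78 and SKOV-3 62, with folds of 8.25, 5.03, 7.48 and 8.50 in that order. Per 1000000 tags the values were 2.69 (95% Poisson interval 2.17 to 3.30), 2.19 (1.74 to 2.73), 2.62 (2.07 to 3.27) and 2.77 (2.12 to 3.55), and all 4 intervals overlapped. In COLO-205 the SRXN1 peak was above 94.7% of marked coding genes and in SKOV-3 above 91.8%, against 65.2% in DU-145 and 57.6% in OVCAR-3. The rank of SRXN1 among marked genes was thus lower in DU-145 and OVCAR-3.

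DU-145 had the widest SRXN1 peak, 2005 bp, against 543 bp in SKOV-3, 650 bp in OVCAR-3 and 942 bp in COLO-205. Only the wide DU-145 peak reached the core letters 610 bp downstream of the start. The other 3 peaks stopped short of them, by 161 bases in COLO-205, 249 in OVCAR-3 and 342 in SKOV-3.

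**Figure D2:**
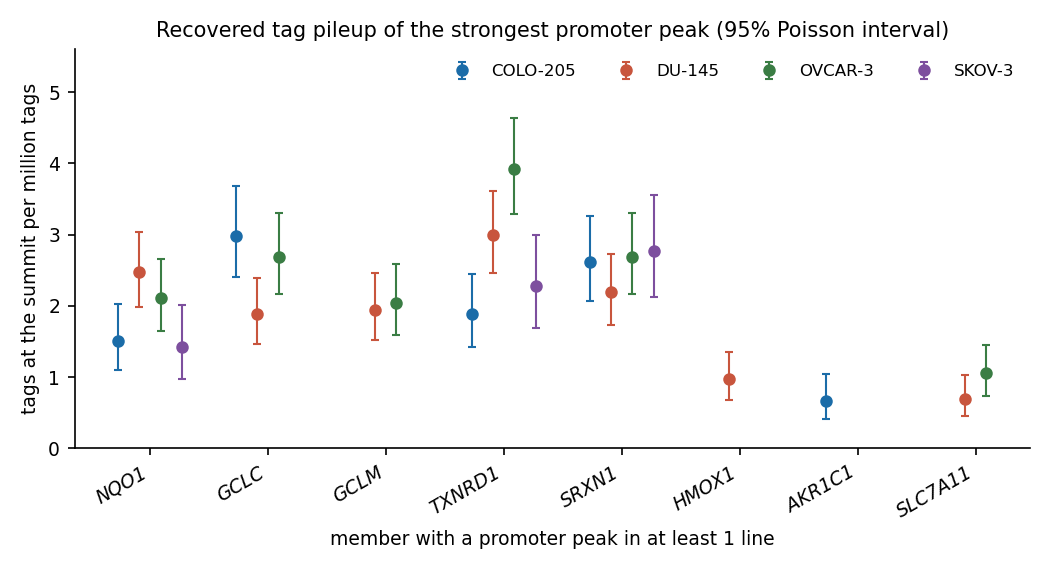
Tags at the summit of the strongest promoter peak, per 1000000 estimated ChIP tags (vertical axis), for the 8 members with a promoter peak in at least 1 line (horizontal axis). Points are the single library of each line and bars are exact 95% Poisson intervals, which cover counting error only. SRXN1 lies between 2.19 and 2.77 in all 4 lines, TXNRD1 between 1.88 and 3.92, with the strongest DU-145 peak at another start than in the other 3 lines.

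NQO1, at chr16:69740899-69760571 on the reverse strand, encodes a quinone reductase that is a standard readout of NRF2 activity. The strongest promoter peak of DU-145 held 89 tags, that of OVCAR-3 72, that of COLO-205 45 and that of SKOV-3 32. The folds were 5.44, 5.92, 4.77 and 5.01 in that order, and the −log10 q 34.0, 30.8, 15.2 and 11.3. Per 1000000 tags this was 2.47 in DU-145 (95% Poisson interval 1.98 to 3.04), 2.104 in OVCAR-3 (1.65 to 2.65), 1.51 in COLO-205 (1.10 to 2.02) and 1.43 in SKOV-3 (0.977 to 2.02). DU-145 had the highest value and SKOV-3 the lowest, and all 4 intervals overlapped.

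The lines differed in where the NQO1 mark lay relative to the match shown above. In DU-145 a 2168 bp peak and in OVCAR-3 an 883 bp peak ran across the match. In SKOV-3 the match fell in a gap between 2 peaks, 47 bases from the one nearer the gene and 188 bases from the other. In COLO-205 it also fell between 2 peaks, 1126 bases from the one in the gene and 291 bases from the upstream one. The COLO-205 peaks had summits 831 bp downstream and 850 bp upstream of the main start, and no NQO1 promoter peak was left in that line when the window was cut to 500 bp either side.

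HMOX1, at chr22:35776354-35790207 on the forward strand, encodes haem oxygenase, which opens the haem ring and is induced by NRF2 once BACH1 leaves its enhancers. Its only promoter peak was in DU-145, with 35 tags, a fold of 2.37 and a −log10 q of 4.13. That is among the weakest of the list, above only 0.249% of marked coding genes, and it was lost when a −log10 q of at least 5 was required. COLO-205 had a peak 2 kb upstream of the start instead, with 24 tags and a fold of 5.72, which counted as a promoter peak when the window was widened to 2 kb.

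The 3 aldo-keto reductases, which reduce carbonyls, steroids and lipid aldehydes, had 1 promoter peak between them. AKR1C1, at chr10:5005445-5025475 on the forward strand, had 1 promoter peak, in COLO-205. This peak was 217 bp wide, held 20 tags with a fold of 5.43 and a −log10 q of 8.65, and lay at an alternative start 1970 bp downstream of the main one. It was lost at a −log10 q of at least 10 and when only starts of protein-coding transcripts were used. AKR1C2, at chr10:5029967-5060223 on the reverse strand, and AKR1B10, at chr7:134212319-134226164 on the forward strand, had none in any line.

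AKR1C1 and AKR1C2 are near copies of each other. Of the 250 bases before their main starts, 246 could be aligned and 245 were identical, an identity of 99.6%. Of the 50-base words in the promoter windows, 30.7% for AKR1C1 and 22.5% for AKR1C2 were found again within the gene cluster, and 24.0% of those of AKR1B10 were found again in its own neighbourhood. Whether tags were lost to this similarity was not tested.

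A distal peak is a peak in the gene or within 50 kb of it that overlaps 1 kb either side of no transcript start of any gene. Counted once where genes share them, DU-145 had 97 such peaks at the members, COLO-205 67, OVCAR-3 16 and SKOV-3 8. At least 1 was found at 8 members in COLO-205, where 71.7% of coding genes had one, and at 7 in DU-145, where 61.3% did. In OVCAR-3 it was 6 members against 56.7% of coding genes, and in SKOV-3 3 members against 19.7%. The share of members with a distal peak was thus close to that of coding genes. The large difference in number between DU-145 and OVCAR-3, whose lists are almost equally long, lay mostly at TXNRD1, NQO1 and SRXN1.

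**Figure D3:**
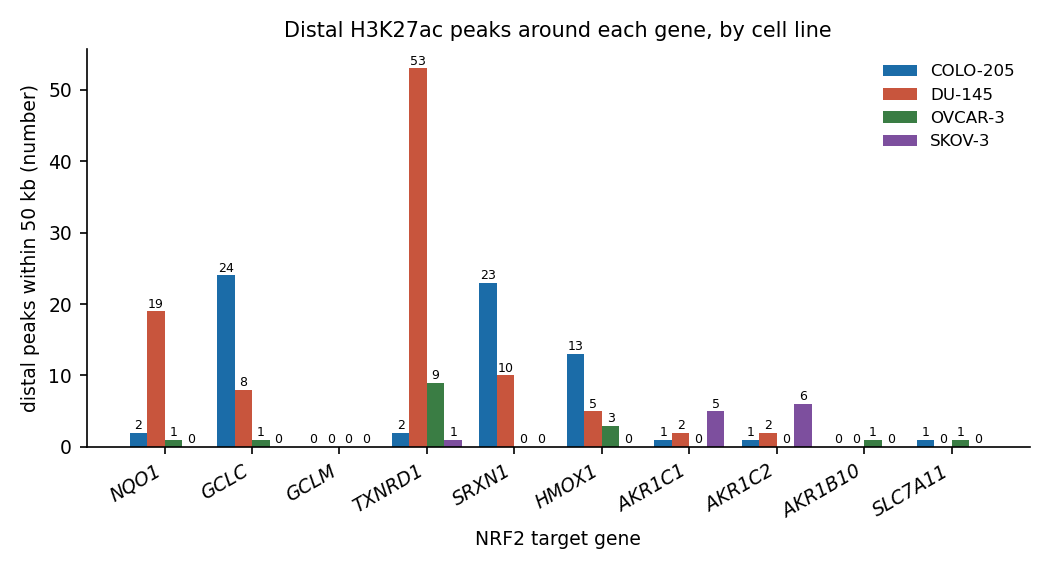
Number of distal H3K27ac peaks within 50 kb (vertical axis) of each NRF2 target gene (horizontal axis), with 1 bar and its number for each cell line. TXNRD1 has 53 in DU-145, GCLC 24 and SRXN1 23 in COLO-205, and AKR1C1 and AKR1C2 have 5 and 6 in SKOV-3, whose other member counts are 0 or 1.

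DU-145 had 53 distal peaks at TXNRD1, OVCAR-3 had 9, COLO-205 had 2 and SKOV-3 had 1. The DU-145 number was above that of 99.2% of coding genes, for which the median was 1. This rank, like those of distal counts below, makes no allowance for gene length, and the median coding gene is 27217 bp long. Of the 53, 45 lay inside the gene of 134.5 kb, and their folds ran from 3.15 to 11.1. In the 1 Mb centred on the gene DU-145 had 110 peaks against a median of 33, above 85.5% of coding genes. Of these, 65 peaks, promoter peaks included, lay in the gene and the 50 kb on either side. In OVCAR-3 all 9 lay inside the gene, and all 9 overlapped a peak of another line.

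The strongest distal peaks of DU-145 were all in TXNRD1 introns. The first, chr12:104650207-104650649, had 53 tags, a fold of 11.1 and a −log10 q of 37.6, and no other line had a peak there. The second, chr12:104614699-104615144, had 61 tags, a fold of 8.996 and a −log10 q of 36.6, and the third, chr12:104611771-104612965, had 51 tags, a fold of 8.89 and a −log10 q of 30.9. The last 2 lay 5.4 kb and 2.4 kb downstream of the main start and had a peak in OVCAR-3 too. So OVCAR-3, with no peak at the upstream start itself, was marked just downstream of it.

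**Figure D4:**
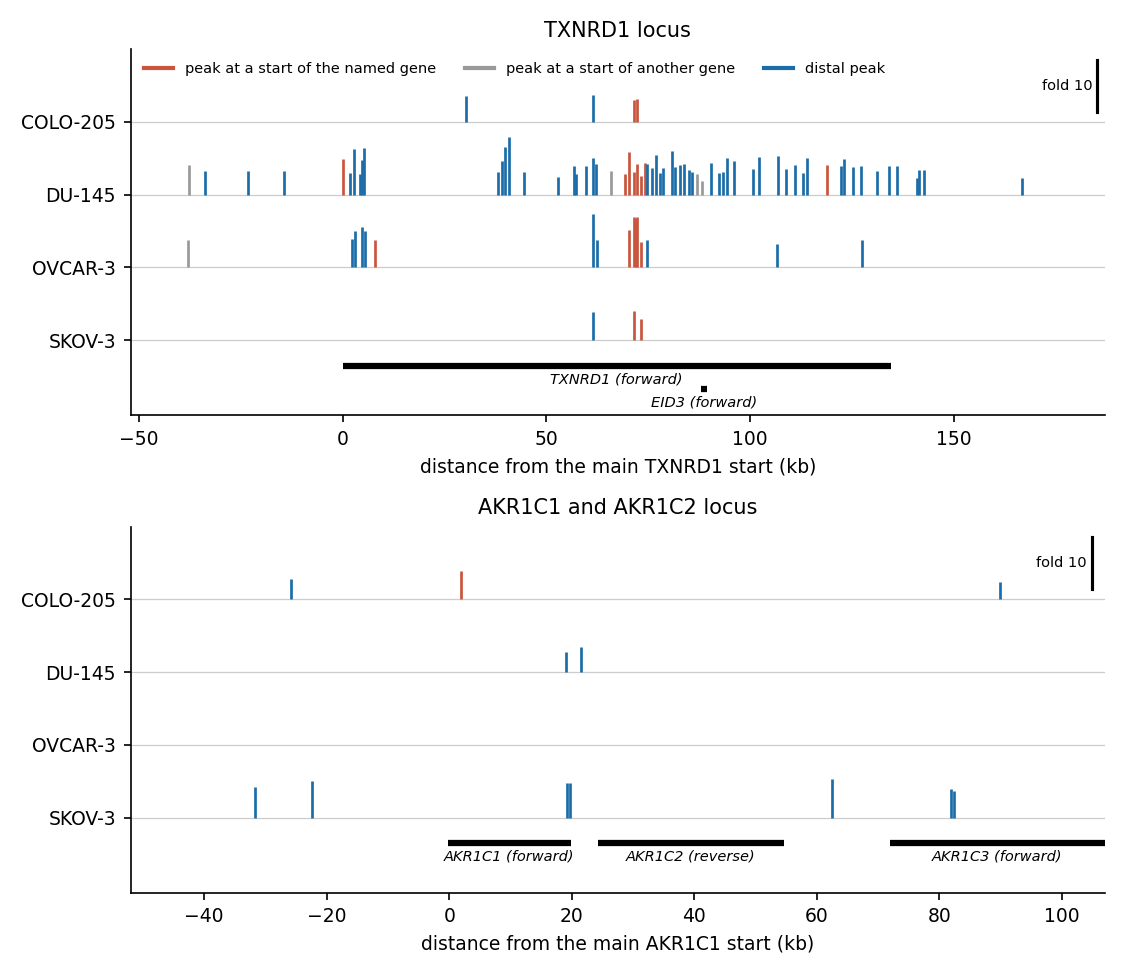
H3K27ac peaks around TXNRD1 (upper) and around AKR1C1 and AKR1C2 (lower), by distance from the main start in kb (horizontal axis), with 1 row per cell line. Each line is a peak with its height as fold enrichment (scale bar, fold 10), red at a start of the named gene, grey at a start of another gene and blue for distal peaks, and black bars are protein-coding genes. DU-145 has 53 distal peaks at TXNRD1, and SKOV-3 has distal peaks but no promoter peak at the AKR1C genes.

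A single distal site at any member was shared by all 4 lines. It lies in a TXNRD1 intron about 61.4 kb downstream of the main start. OVCAR-3 had 40 tags there with a −log10 q of 28.4, DU-145 35 with 18.2, COLO-205 19 with 7.86 and SKOV-3 16 with 6.71. The 135 bases common to the 4 peaks hold neither the core letters nor those of AP-1.

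The common stretch is repeated across the genome. Its 25-base words, taken at 5 places, occur between 10 and 1787 times, whereas each word at the 6 matches above occurs 1 time. Whether tags from other copies contribute to these 4 peaks was not tested.

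At the glutathione genes, COLO-205 had 24 distal peaks at GCLC, DU-145 had 8, OVCAR-3 had 1 and SKOV-3 had 0. The COLO-205 number was above that of 96.0% of coding genes, and 17 of the 24 lay inside the gene. COLO-205 was dense over the wider region as well, with 173 peaks in the 1 Mb centred on the gene against a median of 28, above 94.5% of coding genes. The strongest of the 24, chr6:53516346-53516925, overlaps an exon of the neighbour KLHL31, 106.7 kb upstream of the main GCLC start. It held 85 tags with a −log10 q of 30.9, and was also marked in DU-145 and OVCAR-3. The other strong COLO-205 peaks were in GCLC introns, chr6:53431103-53431390 with a fold of 7.99 and chr6:53385203-53385466 with a fold of 6.93, and neither was marked in another line. GCLM had 0 distal peaks in every line, and SLC7A11 had 1 in COLO-205, 24.3 kb upstream, and 1 in OVCAR-3, 4.4 kb into the gene.

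SRXN1 had 23 distal peaks in COLO-205 and 10 in DU-145, and the ovarian lines had 0. The COLO-205 number was above that of 95.7% of coding genes, with 178 peaks in the 1 Mb centred on the gene against a median of 28. None of the 23 overlapped a peak of another line, and none of the 10 in DU-145 did. SRXN1 therefore combined a promoter peak in every line with distal peaks within 50 kb in 2 lines only, at sites the 2 lines did not share.

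DU-145 had 19 distal peaks at NQO1, COLO-205 had 2, OVCAR-3 had 1 and SKOV-3 had 0. Of the 19, 5 were inside NQO1, and the others lay in or beside its neighbours NFAT5, NOB1 and WWP2. The NQO1 intron site 14.8 kb downstream of the start was the only one shared, with 30 tags in DU-145 and 18 in COLO-205. Around HMOX1, COLO-205 had 13 distal peaks, DU-145 had 5, OVCAR-3 had 3 and SKOV-3 had 0. The strongest distal peak of any member in OVCAR-3 was on the HMOX1 side of chromosome 22, chr22:35821645-35822759, 45.1 kb downstream of the HMOX1 start, with 77 tags, a fold of 10.3 and a −log10 q of 51.0. COLO-205 had a peak there too, with 35 tags and a fold of 5.35.

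In SKOV-3 the distal peaks lay mostly at the aldo-keto reductases. Of its 8 distal peaks, 7 were at AKR1C1 and AKR1C2 and 1 at TXNRD1. AKR1C1 had 5 and AKR1C2 had 6 within 50 kb, above the numbers of 97.7% and 98.3% of coding genes in that list, for which the median was 0. The strongest was chr10:5067925-5068131, between AKR1C2 and AKR1C3, with 19 tags, a fold of 7.35 and a −log10 q of 11.0. The next were chr10:4983149-4983351, 22.3 kb upstream of AKR1C1, with 17 tags and a fold of 6.94, and chr10:5025209-5025413, in an exon at the end of AKR1C1, with 17 tags and a fold of 6.61. All were narrow and low in tags, and of the 8 only 1 was left when a −log10 q of at least 10 was required.

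The other lines had few peaks at this cluster. COLO-205 had 1 distal peak at AKR1C1 and another at AKR1C2, DU-145 had 2 that both genes share, and OVCAR-3 had 0. A single site, at the end of AKR1C1, was marked in both SKOV-3, with 16 tags, and DU-145, with 20 tags. In the SKOV-3 peaks between 0% and 11.8% of the 50-base words were found again in the cluster. AKR1B10 had a single distal peak in all 4 lists, in OVCAR-3 at chr7:134274531-134274816, 62.4 kb downstream of the start, with 32 tags and a fold of 9.37.

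How many of these distal peaks had a counterpart in another line varied by line. In OVCAR-3, 13 of 16 did, or 81.3%, where 27.4% of all distal peaks of the list did. In COLO-205 it was 7 of 67, or 10.4%, against 15.1%, in DU-145 14 of 97, or 14.4%, against 24.6%, and in SKOV-3 2 of 8, or 25%, against 64.0%. Peaks around 1 gene are not independent of each other, and 9 of the 13 in OVCAR-3 are in TXNRD1, where DU-145 is densely marked.

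The core letters were then counted in the 300 bases around each distal summit. They were in 13 of 67 members' peaks in COLO-205, or 19.4%, against 14.8% of all distal peaks of that list. In DU-145 they were in 13 of 97, or 13.4%, against 14.3%, in OVCAR-3 in 3 of 16, or 18.8%, against 14.8%, and in SKOV-3 in 1 of 8, or 12.5%, against 13.7%. The SKOV-3 match belongs to an AKR1C1 peak 198 bp wide, and lies outside that peak but inside the 300 bases. The stricter letters were in 1 of these peaks, a TXNRD1 intron peak of DU-145. The distal peaks of the NRF2 targets thus held the core letters at about the rate of other distal peaks. At promoter peaks OVCAR-3 had the core letters in 4 of 12, DU-145 in 3 of 18, COLO-205 in 1 of 12 and SKOV-3 in 1 of 5, against 12.4% to 13.5% of all promoter peaks. The stricter letters were in 2 of the 12 in OVCAR-3, at GCLC and NQO1, and in 1 of the 5 in SKOV-3, at NQO1. Of all promoter peaks 0.596% and 0.498% held them in these lines. In COLO-205 and DU-145 they were in 0 of the members' promoter peaks.

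Beside the targets, the regulators of the pathway were counted. Of 18 regulator genes, 18 had a promoter peak in OVCAR-3, 16 in both COLO-205 and DU-145 and 14 in SKOV-3, and 14 had one in all 4 lines. Beside them stand 60.5% of all protein-coding genes in OVCAR-3, 51.2% in COLO-205, 59.9% in DU-145, 31.6% in SKOV-3 and 25.2% in all 4. NFE2L2, which encodes NRF2, had a promoter peak in each, with a fold of 11.2 and 183 tags in OVCAR-3, 5.84 and 106 in DU-145, 7.18 and 85 in COLO-205, and 8.11 and 70 in SKOV-3. Those peaks were above 87.3% to 95.5% of marked coding genes. KEAP1, the sensor that removes NRF2, was marked in each line too, with folds of 14.3, 5.26, 4.84 and 5.99 in that order.

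BACH1, the repressor that competes for the element, had folds of 19.1 in OVCAR-3, 7.03 in DU-145, 5.82 in SKOV-3 and 5.54 in COLO-205. In that order these peaks were above 93.5%, 83.1%, 49.2% and 70.0% of marked coding genes. The small MAF partners differed from each other. MAFG was marked strongly in all 4 lines, with folds, in the order COLO-205, DU-145, OVCAR-3, SKOV-3, of 8.89, 9.003, 13.96 and 9.91. MAFF had folds of 2.92, 6.05, 6.84 and 7.28 in the same order, and its COLO-205 peak was above only 4.54% of marked coding genes. MAFK had folds of 5.26, 7.34 and 7.01 in COLO-205, DU-145 and OVCAR-3 and no promoter peak in SKOV-3.

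**Figure D5:**
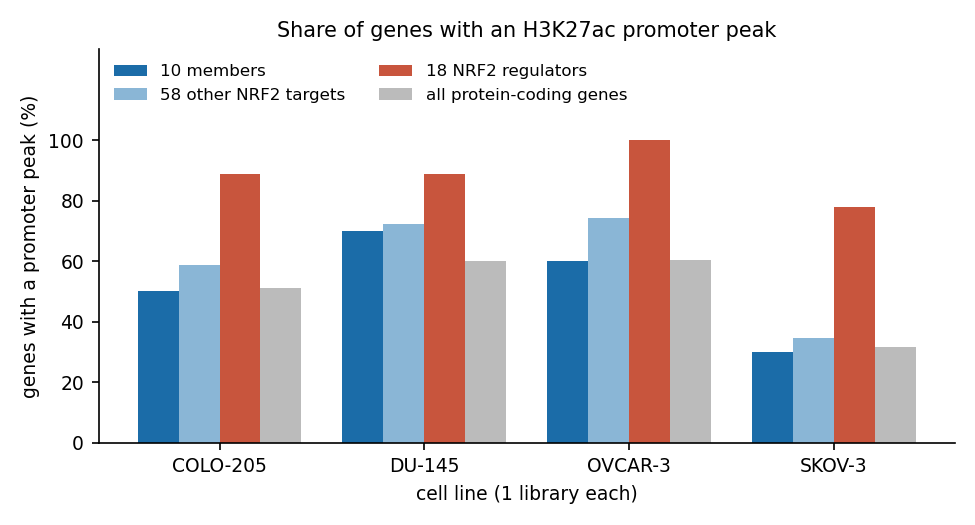
Percentage of genes with an H3K27ac promoter peak (vertical axis, bars from 0) in each cell line (horizontal axis), for the 10 members, 58 other NRF2 targets, 18 NRF2 regulators and all protein-coding genes. The members stand near the coding genes in all 4 lines, and the regulators reach 88.9%, 88.9%, 100% and 77.8%.

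Among 58 other NRF2 targets, 34 were marked in COLO-205, or 58.6%, 42 in DU-145, or 72.4%, 43 in OVCAR-3, or 74.1%, and 20 in SKOV-3, or 34.5%. Each share is above that of all coding genes given above, a difference that was not tested. Of the 58, 18 were marked in all 4 lines, 11 in 3, 13 in 2, 8 in 1 and 8 in none. The median fold of the marked ones was 7.16 against 7.39 for coding genes in OVCAR-3, 5.00 against 5.25 in SKOV-3, 4.83 against 4.65 in DU-145 and 4.52 against 4.45 in COLO-205.

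The highest folds in COLO-205 were at the exporters of glutathione conjugates ABCC3 (9.07) and ABCC1 (8.21) and at GSS (6.41), the last enzyme of glutathione synthesis. In DU-145 they were at GSR (7.35), which regenerates reduced glutathione, at the glutathione transferase gene GSTM1 (6.96) and at RIT1 (6.73). In OVCAR-3 they were at TSKU (28.8), at the haem transporter gene SLC48A1 (16.0) and at GSR (14.7). In SKOV-3 they were at ABCC1 (10.1), at FECH (7.22), which makes haem, and at SLC3A2 (7.09), the partner chain of the SLC7A11 exchanger. SLC3A2 was marked in all 4 lines, and SLC7A11 in DU-145 and OVCAR-3.

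The targets marked in 1 line were spread over 3 lines. They included GPX2, a glutathione peroxidase of the gut lining, and CYP4F3 in COLO-205, with folds of 4.50 and 4.69. In DU-145 they were CBR3 (4.02), AKR1B15 (4.38), GSTM1 (6.96) and ABCC2 (4.67). The AKR1B15 and ABCC2 peaks held 20 tags each and were above only 4.92% and 6.54% of marked coding genes. Those of CBR3 and GSTM1 were above 38.6% and 32.3%. In OVCAR-3 PIR (5.75) was among them. In SKOV-3 no listed target was marked alone.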

How the data were processed

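H3K27ac peaks of 1 library per line were analysed, and the submitters' processing notes name Bowtie2 2.1.0, MACS2 2.1.0.20150603 and hg19. The authors called narrow peaks in each library at a q-value below 0.001. The deposited score is 10 times the −log10 q as a whole number. The deposited fold enrichment is the ratio of tags to local background at the summit, and the deposited −log10 p and −log10 q hold within 1 library only, so lines are not on a common scale. Peaks were taken unmerged, since the deposited lists hold neighbours closer than the 350 bp below which the paper's methods merge. Every column was mapped to its sample.

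From fold and −log10 p, the whole number of tags at each summit was recovered for 100% of peaks within 0.001. Total ChIP tags were estimated as the lowest background times 2700000000 genome positions over the smallest peak width. Pileups per 1000000 tags carry exact Poisson 95% intervals, which cover counting error only, since PCR copies are not separate molecules. Overlap means at least 1 bp. Transcript starts came from GENCODE lifted to GRCh37, and the main start is the canonical transcript's. Distances of matches are to their centre.

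No test was run, since each line has 1 library. The members, lists and rules were chosen with earlier results of these data known. Named were all members, 6 regulators (NFE2L2, KEAP1, BACH1, MAFF, MAFG and MAFK), the 3 other targets with the highest fold in each line and those marked in 1 line, and the 3 distal peaks with the highest −log10 q in each line with any in all 4 lines. Other peaks named were chosen after their values were seen. Some genes and 1 sequence that these rules select are not reported here. Printed matches have 20 bases on either side, or fewer where they touch an untranslated region. Counts of marked members, other targets and regulators were recomputed with peaks whose −log10 q reached 5 or 10, equal peak numbers and merging. Windows of 500 bp and 2 kb, protein-coding transcripts only and 50% overlap were also tried for them. The distal totals were recomputed with the same peak settings, protein-coding transcripts only and distances of 25 kb and 100 kb. Distal peaks with the core letters were recounted at a −log10 q of 5 or 10 and with equal peak numbers. They were also recounted in 1000 bases at the summit and with the stricter letters. Other counts, such as those of markers and of peaks shared between lines, were not recomputed. The software was scipy 1.17.1, pandas 2.3.3, numpy 2.4.6 and matplotlib 3.10.9 under Python 3.11.15, and the scripts were tested on simulated data.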

Additional observations from a re-analysis of the deposited data

How the results depend on the processing

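No paired analysis was possible because each line gave only 1 library. Of the counts recomputed under the alternatives, 123 stayed within 1.5 times the main value and 29 did not. The distal peaks of the members fell to 43 in DU-145, 26 in COLO-205, 10 in OVCAR-3 and 1 in SKOV-3 at a −log10 q of at least 10, and to 10, 13 and 1 in COLO-205, DU-145 and OVCAR-3 when every list was limited to its 14001 strongest peaks. Within 25 kb they were 43 in COLO-205 and 5 in SKOV-3, and within 100 kb 110 in COLO-205. Distal peaks with the core letters numbered 5, 7, 1 and 0 (COLO-205, DU-145, OVCAR-3, SKOV-3) at a −log10 q of at least 10, 25, 38, 8 and 3 in 1000 bases, 0, 1, 0 and 0 with the stricter letters, and 0, 1 and 0 in COLO-205, DU-145 and OVCAR-3 with equal peak numbers. With equal peak numbers 4 members were marked in DU-145, without GCLC, HMOX1 and SLC7A11, where 37.8% of coding genes were, while COLO-205 had 4 against 21.8%, OVCAR-3 5, without SLC7A11, against 38.0% and SKOV-3 3 against 31.6%. Other targets marked in COLO-205 were 22 at a −log10 q of at least 10 and 16 with equal peak numbers, and in OVCAR-3 27 with equal peak numbers. NQO1, TXNRD1 and SRXN1 stayed marked in all 4 lines under every setting run but 1, the 500 bp window, which removed NQO1 in COLO-205. SKOV-3 has the fewest estimated tags, and replicate error is unknown for all values.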
